A study of Mus musculus with 81 samples.

Results

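Acta2-positive stromal cells are the 18 cells of the embryonic pancreatic stroma that held smooth muscle alpha-actin transcripts at 1 RPKM (reads per kilobase of transcript, scaled to sequencing depth) or more. They were set against the 44 stromal cells below that level. Both classes come from the same 81 single-cell libraries, made at embryonic day 13.5 from pancreata of CD1 wild-type embryos after trypsin dissociation and capture on a microfluidic device. No agent or transgene is named for any cell, and the labels name neither animals nor a number of embryos pooled, so all cells count as a single sample, without p-values. A cell was taken as stromal when the fibrillar collagen gene Col3a1 was at 10 RPKM or more and the epithelial gene Epcam, the endocrine gene Chga, the leukocyte gene Tyrobp and the endothelial gene Emcn were each under 10 RPKM, with the shallow cells C3, C43, C61 and C94 left out. This left 62 of 81 cells (76.5%, exact Clopper-Pearson 95% interval 65.8 to 85.2%, counting error only). The classes were chosen by the measured Acta2 values, which are therefore given as a description.

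Acta2 encodes the actin isoform of smooth muscle thin filaments. It is used as a marker of vascular and visceral smooth muscle, of some pericytes (the cells that wrap small vessels), and of activated fibroblasts, including pancreatic stellate cells. In differentiated smooth muscle it is made together with a contractile set that includes the myosin heavy chain Myh11, calponin (Cnn1), transgelin (Tagln), desmin (Des) and the myosin light chain Myl9. Many of these genes are known targets of serum response factor, which binds the CArG box and works with the coactivators myocardin and MRTF.

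The promoters of Acta2, Myl9 and vinculin (Vcl) are shown because they hold CArG boxes and because the RNA of the 3 genes stood differently in the comparison that follows. The sequences are the 250 bases before the transcript start in RefSeq (mouse build GRCm38.p6), 5′ to 3′ on the gene's strand, and capitals mark CArG boxes. Both the strict form, with only A and T in the centre, and a relaxed form with at most 1 G or C there were searched on both strands. The windows are chr19:34255374-34255623 on the minus strand for Acta2, chr2:156775214-156775463 on the plus strand for Myl9, and chr14:20929148-20929397 on the plus strand for Vcl.
Acta2: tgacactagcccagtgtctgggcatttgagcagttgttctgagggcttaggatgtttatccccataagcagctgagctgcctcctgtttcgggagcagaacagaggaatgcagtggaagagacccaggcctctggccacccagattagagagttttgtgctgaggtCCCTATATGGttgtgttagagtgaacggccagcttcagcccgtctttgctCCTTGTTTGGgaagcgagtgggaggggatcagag
Myl9: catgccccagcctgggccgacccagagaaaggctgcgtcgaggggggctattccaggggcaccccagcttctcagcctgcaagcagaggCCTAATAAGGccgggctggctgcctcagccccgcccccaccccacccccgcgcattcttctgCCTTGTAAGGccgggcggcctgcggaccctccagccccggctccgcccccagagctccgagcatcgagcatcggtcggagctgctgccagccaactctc
Vcl: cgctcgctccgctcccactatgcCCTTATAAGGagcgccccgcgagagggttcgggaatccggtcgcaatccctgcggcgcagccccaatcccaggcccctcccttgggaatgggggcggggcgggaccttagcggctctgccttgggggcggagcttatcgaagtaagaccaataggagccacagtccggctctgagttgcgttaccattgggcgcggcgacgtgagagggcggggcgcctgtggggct
The Acta2 window holds 2 relaxed boxes, which begin 84 and 34 bases before the start. The Myl9 window holds a strict box 161 bases and a relaxed box 99 bases before the start, and the Vcl window holds a strict box 227 bases before it. A strict box occurred in 1.47% of 32851 mouse promoter windows and a relaxed or strict one in 8.59%. Of the 27 genes reported here of the smooth muscle contractile list, 23 were in the promoter table. Among these, 3 held a strict box and 5 held a box of either form. No box was found in the windows of Des or Tpm1, and a match or its absence in this window is a description of letters only.

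Acta2 RNA was unevenly spread over the stroma. It reached 1 RPKM in 18 of 62 stromal cells (29.03%, 95% interval 18.2 to 41.9%). The 6 highest cells were C69 with 416.5 RPKM, C1 with 311.7, C40 with 299.0, C80 with 189.7, C46 with 129.7 and C25 with 119.2 RPKM. The next 6 were C33 with 81.6 RPKM, C96 with 65.1, C49 with 52.6, C76 with 49.99, C83 with 43.3 and C11 with 40.01 RPKM. The last 6 were C16 with 21.9 RPKM, C6 with 11.1, C14 with 11.03, C15 with 10.3, C71 with 4.77 and C7 with 2.11 RPKM. The positive cells thus were spread over a wide range, and the median of the positive cells was 51.3 RPKM.

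The threshold fell in a gap. Just inside it stood C7, whose 2.11 RPKM correspond to about 13 reads. Just outside it stood C28 with 0.40 RPKM and C17 with 0.34 RPKM, each about 2 reads. Of the 44 Acta2-negative cells, 34 were listed at 0 and 10 held an estimated 1 or 2 reads. Among the 19 cells outside the comparison, 1 was above the threshold, the shallow C61, and the highest of the remainder was C36 with 0.82 RPKM. Acta2 lies on chromosome 19 at 34315581 to 34329826 on the minus strand (mm9, as deposited). Its plus-strand neighbour Stambpl1, at 34266760 to 34314818, does not overlap it and reached 1 RPKM in 0 of 18 positive and 4 of 44 negative cells.

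**Figure D1:**
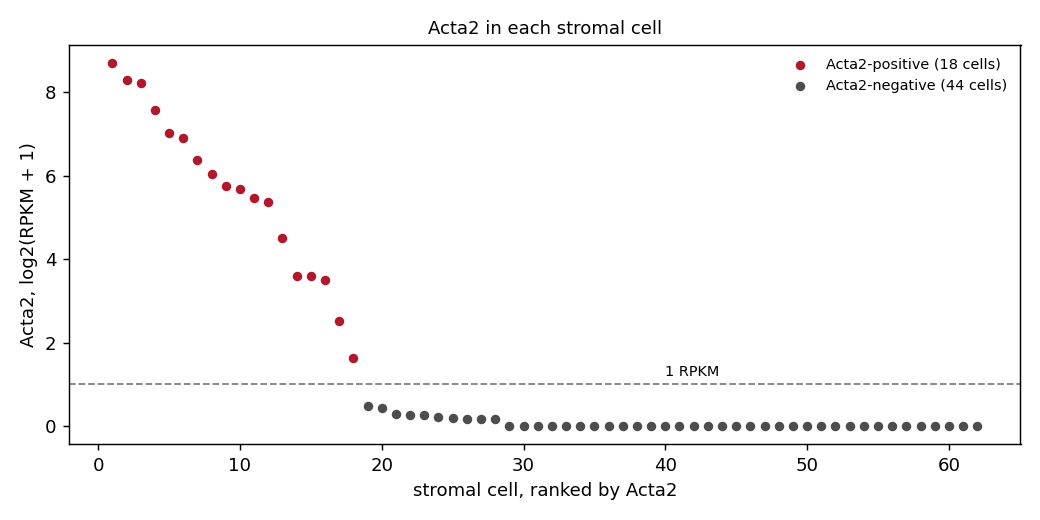
Acta2 level, as log2(RPKM + 1), in each of the 62 stromal cells ranked from highest to lowest, with Acta2-positive cells in red and Acta2-negative cells in grey. The dashed line marks 1 RPKM, and the 18 positive cells run down to 2.11 RPKM while the highest negative cell is at 0.40 RPKM.

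The Acta2-positive share was 11 of 29 stromal cells (37.9%, 20.7 to 57.7%) among cells numbered 1 to 48, and 7 of 33 (21.2%, 8.98 to 38.9%) among those numbered 49 to 96. These blocks carry different first library indices, and what the numbers stand for is not stated. The positive cells were also sequenced a little less deeply. Their estimated reads had a median of 3.12e+06 (1.66e+06 to 4.90e+06), against 3.87e+06 (2.34e+06 to 4.95e+06) in negative cells. Genes at 1 RPKM or more were close, with a median of 4004 in positive cells and 4080 in negative cells. Libraries that share an index with a cell of 100 RPKM Acta2 or more made up 9 of 12 positive cells under 100 RPKM, 8 of 10 negative cells above 0 and 29 of 34 listed at 0. The parts of depth and of cell number in the results below were not tested.

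Both classes carried the markers of stroma. Col3a1, which is part of the rule, had a median of 115.6 RPKM in positive and 134.6 RPKM in negative cells. The type I collagen chain Col1a1 was at 10 RPKM or more in 18 of 18 positive and 28 of 44 negative cells, with medians of 28.4 and 20.8 RPKM. Its difference of 0.91 on the log2 scale stayed under the size called here. Col1a2 had medians of 184.0 RPKM in positive and 155.8 RPKM in negative cells, and the intermediate filament gene Vim 601.4 and 520.5 RPKM. Epcam, Chga and Emcn reached 1 RPKM in no stromal cell, and Tyrobp did so in 0 positive and 1 negative cell.

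Across all other genes, the difference between classes was taken as the mean log2(RPKM + 1) over the 18 positive cells minus that over the 44 negative cells. A gene was called higher or lower at a difference of at least 1, which is 2-fold on this scale. Of 7884 genes that reached 1 RPKM in at least 10 stromal cells, 299 (3.79%) were higher and 366 (4.64%) were lower in Acta2-positive cells. The differences were small beside the variation from cell to cell. They ran from -2.34 to 2.27 with a median of -0.05, while the median SD of a gene over stromal cells was 1.96, and 1 of the 665 calls exceeded its own gene's SD. The counts of lists are to be read against these shares.

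Some members of the contractile list were higher in Acta2-positive cells. Of the 27 contractile genes reported here, 14 passed the filter on low values, and of these 4 were higher (28.6%, against 3.79% of all genes) and 10 were within 1, with a median difference of 0.16. The higher members were Tagln, Tpm1, Myl9 and Des. Among cells of 2.4e+06 to 4e+06 estimated reads, 12 positive and 23 negative, 2 of the 14 were higher and 1 lower, with a median of 0.32. Over the 5295 genes at 1 RPKM in at least 10 of those cells, 9.9% were higher and 9.46% lower. The 14 are the genes compared in all cells, so list and background were filtered on different cells.

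Tpm1, the tropomyosin that lies along actin filaments, differed by 1.28. It ranged from 17.1 RPKM over a median of 105.2 to 256.8 RPKM in positive cells, and from 0.44 over 56.3 to 614.3 RPKM in negative cells. It was at 10 RPKM or more in 18 of 18 positive and 34 of 44 negative cells, so the positive cells lacked the low tail although the ranges overlap. The difference was 1.21 among cells 1 to 48 and 1.33 among cells 49 to 96.

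Tagln, an actin-binding protein of early smooth muscle, differed by 1.49, with a mean log2 level of 2.11 ± 2.94 in positive cells and 0.62 ± 1.69 in negative cells (SD over cells). It reached 1 RPKM in 7 of 18 positive and 6 of 44 negative cells. Both classes ran from 0 over a median of 0, to a highest value of 176.2 RPKM in positive cell C25 and of 263.6 RPKM in negative cell C67. Tagln overlaps Pcsk7 in the annotation, so some reads could be shared. The difference was 2.21 among cells 1 to 48 but 0.37 among cells 49 to 96.

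Myl9, the regulatory light chain that drives contraction when phosphorylated, differed by 1.13. It ran from 0 over a median of 13.8 to 210.8 RPKM in positive cells and from 0 over 0.24 to 341.0 RPKM in negative cells. It reached 1 RPKM in 10 of 18 positive and 19 of 44 negative cells. The direction was not shared by the blocks, at 2.74 among cells 1 to 48 and -0.83 among cells 49 to 96.

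Des, the muscle intermediate filament that also marks stellate cells, differed by 1.11. It ran from 0 over a median of 7.12 to 148.9 RPKM in positive cells and from 0 over 0.51 to 125.4 RPKM in negative cells. It reached 1 RPKM in 12 of 18 positive and 19 of 44 negative cells, and differed by 1.61 among cells 1 to 48 and 0.59 among cells 49 to 96. The classes of all 4 genes overlap.

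**Figure D2:**
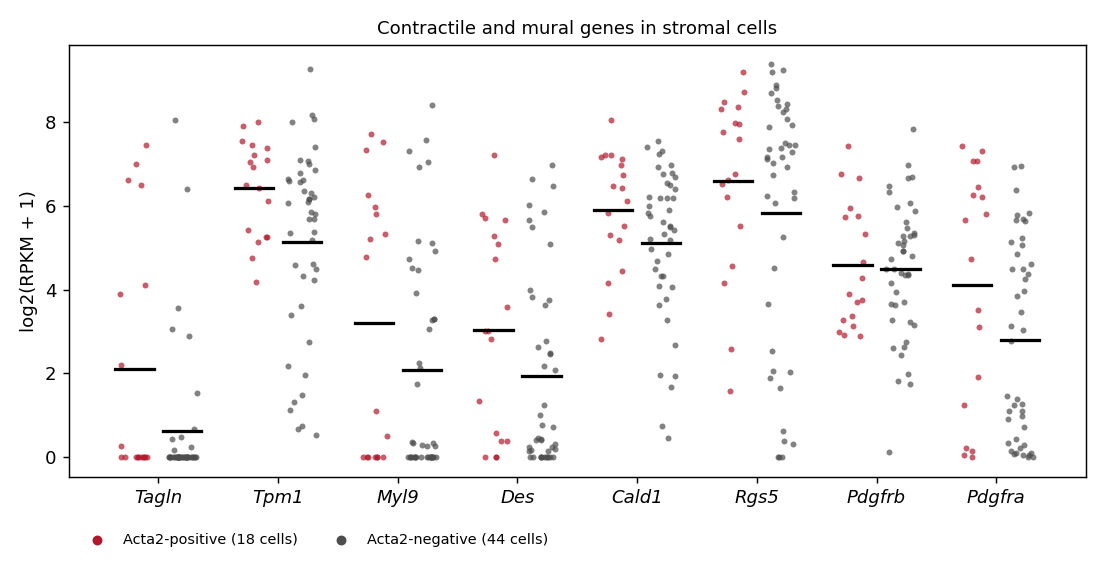
Levels of 5 contractile genes (Tagln, Tpm1, Myl9, Des, Cald1) and 3 mural or fibroblast receptor and signalling genes (Rgs5, Pdgfrb, Pdgfra), as log2(RPKM + 1), with Acta2-positive cells left and Acta2-negative cells right. Each point is 1 cell and each bar the class mean, and the points of the classes overlap in every gene.

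These genes were rarely all listed at a high level in the same cell. Tagln, Myl9 and Des were picked for this count after their values were seen, from the 4 called higher. A larger share of positive cells holding them therefore follows in part from that choice. All 3 were at 10 RPKM or more in 2 of 18 positive cells, C1 and C25, and in 0 of 44 negative cells (95% interval 0 to 8.04%). Exactly 2 were at that level in 6 of 18 positive and 6 of 44 negative cells. None of them was at that level in 5 of 18 positive (27.8%, 9.69 to 53.5%) and 23 of 44 negative cells (52.3%, 36.7 to 67.5%). Over all 14 compared contractile genes, the number at that level per cell had a median of 7 (4 to 11) in positive and 6 (3 to 10) in negative cells. The highest Acta2 cell, C69, had 0 RPKM of Tagln, 0 RPKM of Myl9 and 6.1 RPKM of Des, whereas C1 had 97.3, 159.8 and 49.4 RPKM of the same genes. Whether transcripts were missed in single cells was not tested, so a listed 0 does not show that the RNA was absent. Across the 18 positive cells, Spearman's rho with Acta2 was 0.42 for Des, 0.21 for Myl9, 0.10 for Tagln and -0.02 for Tpm1, the 4 higher contractile genes, and ran from -0.25 to 0.42 over the 14 compared, as a description over cells of one sample that differ in depth.

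Of the members within 1, the actin- and tropomyosin-binding caldesmon gene Cald1 differed by 0.79, Tpm2 by 0.21, filamin A (Flna) by -0.04, alpha-actinin (Actn1) by -0.06, Vcl by -0.16 and Tagln2 by -0.60. The essential light chain gene Myl6 differed by 0.18, and 53.2% of its 50-base windows occur in transcripts of other genes.

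The genes that mark mature smooth muscle were near absent. Myh11 reached 1 RPKM in 0 of 18 positive and 0 of 44 negative cells, with highest values of 0 and 0.28 RPKM. Cnn1 did so in 1 positive and 1 negative cell, at 2.74 and 1.04 RPKM. The coactivator gene Myocd reached 4.94 RPKM in 1 positive cell and at most 0.29 RPKM in negative cells. Lmod1, which nucleates actin filaments, reached 25.2 RPKM in 1 positive cell and at most 0.64 RPKM in negative cells. Myosin light chain kinase (Mylk) and smoothelin (Smtn) were each at 1 RPKM in 1 positive and 6 negative cells. In all, 13 of these 27 contractile genes did not pass the filter, so the count of 4 rests on those that did.

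The other actins did not separate the classes. Cytoplasmic Actb had a median of 4084 RPKM in positive and 3647 RPKM in negative cells, a difference of 0.15. Actg1 had 16.8 and 16.9 RPKM, with 56.7% of its windows shared with other transcripts. Skeletal Acta1 and cardiac Actc1 reached 1 RPKM in no cell of either class, and enteric smooth muscle Actg2 did so in 0 positive and 1 negative cell, at 29.2 RPKM. Of the 50-base windows of the Acta2 transcript, 0.352% occur in transcripts of other genes.

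Among the 17 cofactor and target genes of SRF, MRTF and YAP that were compared, 1 was higher (5.88%, against 3.79% of all genes). None was lower, and the median was 0.26. The higher gene was Cyr61, a secreted matricellular target of YAP, which differed by 1.45. Its median was 457.2 RPKM (6.68 to 1142 RPKM) in positive cells and 195.8 RPKM (0.12 to 1164 RPKM) in negative cells, and it differed by 1.16 and 1.72 in the blocks 1 to 48 and 49 to 96. Srf itself differed by 0.70 and the MRTF gene Mkl1 by -0.02.

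Pericyte genes were found in both classes. Of 24 pericyte and mural genes, 10 were compared, 1 was higher (10%, against 3.79% of all genes) and 0 were lower. The median difference was 0.25 in all cells and -0.10 among cells of 2.4e+06 to 4e+06 estimated reads. Rgs5, a regulator of G protein signalling that marks pericytes, reached 1 RPKM in 18 of 18 positive and 38 of 44 negative cells. Its medians were 151.0 RPKM (1.96 to 593.3 RPKM) in positive and 141.0 RPKM (0 to 669.2 RPKM) in negative cells, a difference of 0.78. The PDGF receptor Pdgfrb reached 1 RPKM in 18 of 18 positive and 43 of 44 negative cells. Its medians were 16.2 and 23.7 RPKM, while its difference of mean log2 levels was 0.10. The proteoglycan Cspg4 (NG2) reached 1 RPKM in 0 positive and 5 negative cells, and the adhesion molecule Mcam in 1 positive and 5 negative cells.

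The member of that list that was higher was the other PDGF receptor, Pdgfra, which is known rather from fibroblasts and mesenchymal progenitors. It differed by 1.32, with a median of 37.8 RPKM (0 to 171.9 RPKM) in positive cells and 6.47 RPKM (0 to 122.2 RPKM) in negative cells. It reached 10 RPKM in 11 of 18 positive and 20 of 44 negative cells, and differed by 1.42 and 1.18 in the blocks 1 to 48 and 49 to 96. Within the positive cells the rank correlation of Rgs5 with Acta2 was -0.32 over 18 cells. Of 7 compared stellate cell genes, Des alone was higher (14.3%, against 3.79% of all genes).

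Matrix genes were mostly alike in size. Of 29 compared genes of fibrillar collagens and interstitial matrix, 3 were higher (10.3%, against 3.79% of all genes) and 1 was lower, with a median of 0.15. Mfap4, a microfibril-associated protein of elastic fibres, differed by 1.82 and reached 1 RPKM in 12 of 18 positive and 17 of 44 negative cells. Its median was 18.2 RPKM (0 to 241.4 RPKM) in positive cells and 0.19 RPKM (0 to 178.8 RPKM) in negative cells, and it differed by 1.15 and 2.42 in the blocks. Thrombospondin 1 (Thbs1), a matricellular protein that can activate latent TGF-beta, differed by 1.09, and the collagen VI chain gene Col6a3 by 1.04. The small proteoglycan gene Ogn differed by -1.33, at 1 RPKM in 2 positive and 17 negative cells, and overlaps Cenpp.

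Nid2, a basement membrane linker, was the 1 higher gene of 10 in its list (10%, against 3.79% of all genes), at 1.14. It overlaps 2700060E02Rik in the annotation, which itself differed by 0.78. Of 15 matrix proteases and inhibitors, 2 were higher (13.3%, against 3.79% of all genes) and 0 were lower. The higher genes were the secreted metalloproteases Adamts1 at 1.48 and Adamts5 at 1.13. Adamts1 reached 1 RPKM in 12 of 18 positive and 17 of 44 negative cells. Of 11 integrin genes, 0 were higher and 0 lower. The same held for 17 TGF-beta pathway genes, a pathway known to induce Acta2, whose median difference was -0.08. With 3.79% of all genes higher and 4.64% lower, 0 calls in 11 or 17 genes do not set these lists apart from all genes.

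Other signalling genes differed singly. Of the compared genes, 1 of 8 Hedgehog (12.5%), 1 of 14 Wnt (7.14%) and 1 of 12 BMP genes (8.33%) were lower, against 4.64% of all genes. Of 15 PDGF, VEGF, angiopoietin and chemokine genes, 1 was higher and 1 lower (6.67% each, against 3.79% and 4.64%). A single call in lists of this size is no result about a pathway. Gli2, the main activator among the transcription factors of Hedgehog signalling, was lower by the widest margin in these lists, at -1.45. It reached 1 RPKM in 1 of 18 positive cells, at 2.34 RPKM, and in 18 of 44 negative cells, with values up to 161.4 RPKM, and the difference was -1.45 and -1.40 in the blocks. Gli3, mostly a repressor, differed by 0.37, and the receptor gene Ptch1 by -0.11. The secreted Wnt ligand gene Wnt5a differed by -1.11, with medians of 5.57 RPKM in positive and 31.4 RPKM in negative cells. The endothelin receptor gene Ednrb differed by 1.25, with medians of 28.4 and 4.57 RPKM, and the VEGF family ligand gene Vegfb by -1.03. The BMP target Id3 differed by -1.07 in all, but by -2.17 among cells 1 to 48 and 0.61 among cells 49 to 96. No gene of the Notch, FGF, retinoic acid or imprinted lists was called in either direction, with 8, 10, 10 and 17 genes compared. Beside 3.79% of all genes higher and 4.64% lower, 0 calls in lists of this size do not set them apart.

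Of 36 transcription factors of visceral mesenchyme, 1 was higher (2.78%) and 2 were lower (5.56%), shares near those of all genes. Zeb1, a repressor of epithelial genes, differed by 1.07, with medians of 18.5 RPKM in positive and 5.64 RPKM in negative cells, and overlaps Gm10125. Sox11, a factor of embryonic progenitor cells, differed by -1.18, and Snai1, a repressor of E-cadherin, by -1.17. The mesothelial and mesenchymal factor Wt1 reached 1 RPKM in 9 of 18 positive and 35 of 44 negative cells, and its difference of -0.97 fell just short of the size called. Sox9, also a factor of progenitor epithelium, reached 1 RPKM in 5 positive and 17 negative cells and differed by -0.39.

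**Figure D3:**
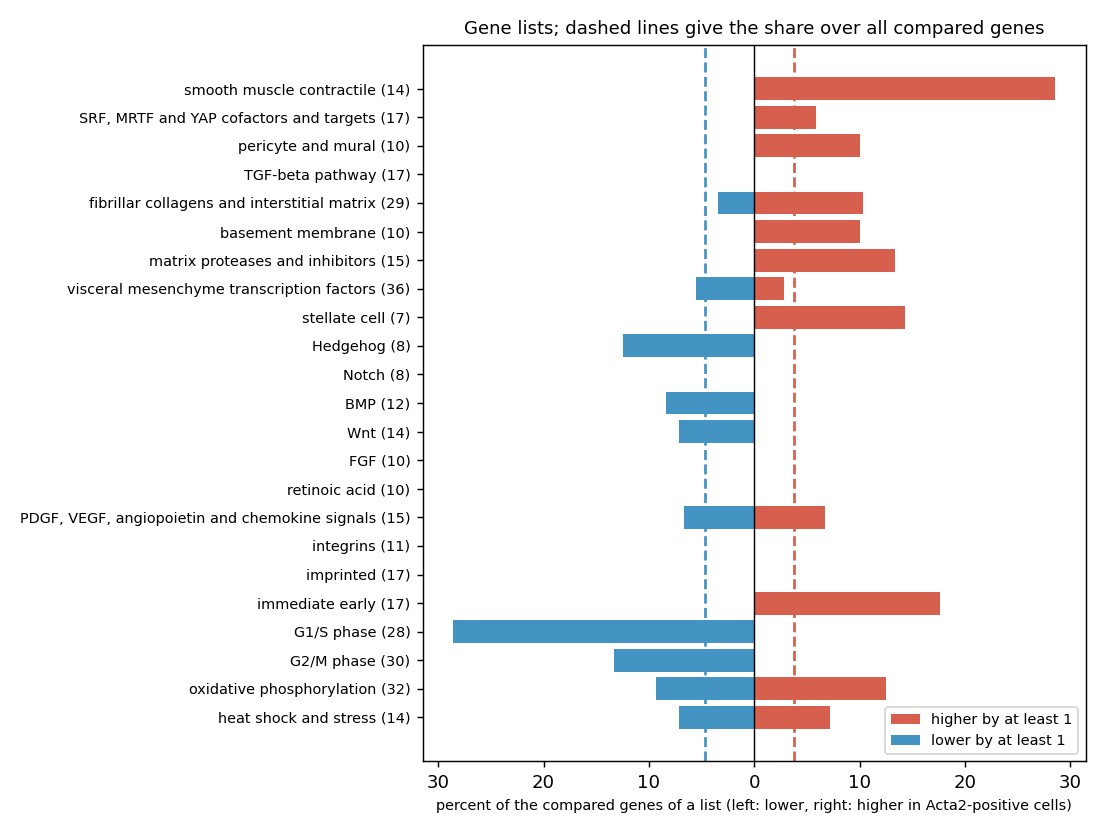
Share of the compared genes of each list, with their number in brackets, that were higher (right, red) or lower (left, blue) by at least 1 in Acta2-positive than in Acta2-negative cells. Lists with fewer than 7 compared genes are not drawn. Dashed lines mark the shares over all 7884 genes, 3.79% higher and 4.64% lower, and the bars of most lists stand for 0 to 4 genes.

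A larger share of cell cycle genes than of all genes was lower in Acta2-positive cells. Of 28 compared genes of the G1/S transition and DNA synthesis, 8 were lower (28.6%, against 4.64% of all genes) and 0 were higher, with a median of -0.49. Thymidylate synthase (Tyms) differed by -1.79, with a median of 0.10 RPKM (0 to 254.4 RPKM) in positive and 24.8 RPKM (0 to 132.1 RPKM) in negative cells. The licensing factor gene Cdc6 reached 1 RPKM in 0 of 18 positive and 15 of 44 negative cells and differed by -1.27. The ribonucleotide reductase gene Rrm2 differed by -1.32, the helicase subunit genes Mcm4 by -1.14 and Mcm5 by -1.05, and the polymerase gene Pola1 by -1.10. Members that went the other way stayed within 1, among them Mcm6 at 0.79 and Chaf1a at 0.54.

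Of 30 G2/M genes, 4 were lower (13.3%, against 4.64% of all genes) and 0 were higher, with a median of -0.39. These were cyclins A2 and B2 (Ccna2 at -1.23, Ccnb2 at -1.22), the spindle checkpoint kinase gene Ttk at -1.07 and topoisomerase II alpha (Top2a) at -1.003. Ccna2 overlaps Exosc9 in the annotation. Top2a was at 10 RPKM or more in 10 of 18 positive and 29 of 44 negative cells. Per cell, the number of G2/M genes at 10 RPKM or more had a median of 4.5 (0 to 26) in positive and 11.5 (0 to 28) in negative cells. At least 5 were at that level in 9 of 18 positive cells (50%, 26.02 to 73.98%) and 32 of 44 negative cells (72.7%, 57.2 to 85.0%). At least 10 were in 7 of 18 positive (38.9%) and 24 of 44 negative cells (54.5%). The intervals give counting error only and are no test between the classes. The corresponding medians of G1/S genes, counted over all 30 of that list, were 9 (5 to 21) and 13 (5 to 19).

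The mitotic difference depended on which cells were compared. Among the 12 positive and 23 negative cells of 2.4e+06 to 4e+06 estimated reads, where median reads were 3.07e+06 and 3.41e+06, 1 of 30 G2/M genes was lower with a median of 0.02, while 6 of 28 G1/S genes were lower and 2 higher with a median of -0.45. Over the 5295 genes at 1 RPKM in at least 10 of these cells, 9.46% were lower and 9.9% higher, while both lists keep the members compared in all cells. Without the Acta2-negative cell C20, 2 of 30 G2/M genes and 6 of 28 G1/S genes were lower, beside 4.33% of all genes. With the positive class kept to Acta2 of 10 RPKM or more, 9 of 30 G2/M genes and 8 of 28 G1/S genes were lower, beside 5.396% of all genes. The median of the G1/S list was -0.12 among cells 1 to 48 and -0.96 among cells 49 to 96.

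**Figure D4:**
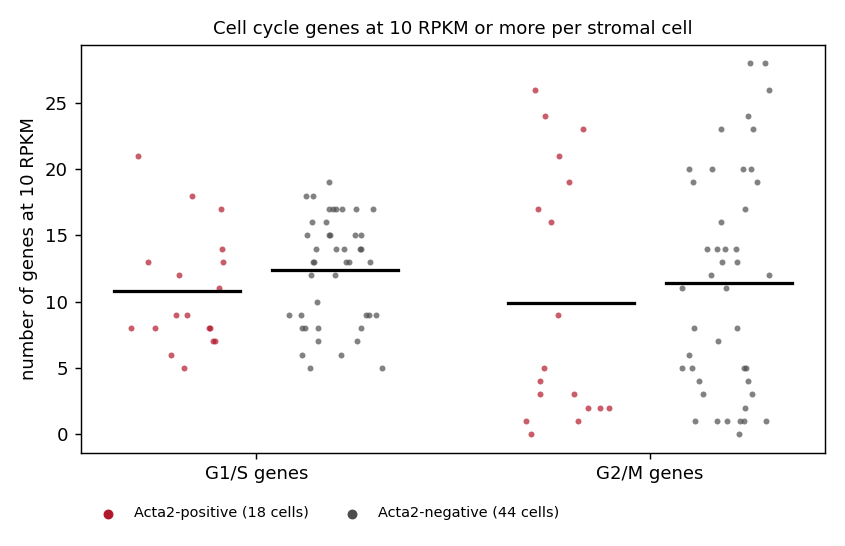
Number of G1/S genes (of 30 in the list, 28 of them compared) and of G2/M genes (of 30 compared) at 10 RPKM or more in each cell, with Acta2-positive cells left, Acta2-negative cells right and bars at the class means. For G2/M genes 9 of 18 positive and 32 of 44 negative cells have at least 5, and both classes span nearly the whole range.

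Immediate early genes respond within minutes to growth factors and also to tissue dissociation. Of 17 compared, 3 were higher (17.6%, against 3.79% of all genes) and 0 were lower (against 4.64%), with a median of 0.34. The orphan nuclear receptor gene Nr4a1 differed by 1.53, with medians of 13.1 RPKM in positive and 0.15 RPKM in negative cells. The zinc finger factor Klf6 differed by 1.27 and the antiproliferative gene Btg2 by 1.13. Fos, with medians of 462.2 and 344.1 RPKM, differed by 0.73, and Egr1 by 0.14. The stress factor gene Atf4 differed by 1.59, with medians of 122.7 and 33.5 RPKM, and the thioredoxin inhibitor gene Txnip by -1.53. They were the 1 higher and 1 lower of 14 compared heat shock and stress genes (7.14% each, against 3.79% and 4.64% of all genes). Txnip overlaps Gm15441 in the annotation. Of 32 oxidative phosphorylation genes, 4 were higher (12.5%, against 3.79% of all genes), among them Ndufs7 at 1.60 and Ndufa1 at 1.59. Another 3 were lower (9.38%, against 4.64%), among them Cyc1 at -1.36 and Cox5a at -1.29. The median of the list was 0.03.

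The widest differences over all genes were in genes outside the lists. Genes are named where 50% or more of the class with the higher mean reached 1 RPKM and the difference kept its sign in both blocks of cell numbers. Highest was Naa35, a subunit of an N-terminal acetyltransferase, at 2.27, with a median of 48.6 RPKM (0.27 to 156.2 RPKM) in positive cells and 4.03 RPKM (0 to 214.9 RPKM) in negative cells. It was followed by Ing4 at 2.17, Mcfd2, a cargo receptor subunit of the secretory path, at 2.15, Hbxip, a subunit of the Ragulator complex on lysosomes, at 2.10, Churc1 at 2.05 and Mob3a at 2.03. Next came Dguok, a mitochondrial nucleoside kinase, at 2.02, Wrb, which inserts tail-anchored proteins into the endoplasmic reticulum, at 2.01, Ranbp9 at 1.97, the Arp2/3 actin nucleation subunit Arpc1a at 1.93, the membrane traffic GTPase Rab8a at 1.92 and Lage3 at 1.91. Ranbp9 overlaps Nol7, and 96.9% of the windows of Ing4 and 54.4% of those of Churc1 occur in transcripts of other genes, so these 3 are uncertain.

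Lowest was Vkorc1, an enzyme of the vitamin K cycle, at -2.34, although 50.5% of its windows are shared. The iron exporter gene Slc40a1 differed by -2.17, with a median of 0.81 RPKM (0 to 346.0 RPKM) in positive and 61.1 RPKM (0.08 to 440.8 RPKM) in negative cells. The transfer RNA synthetase gene Qars differed by -2.21, the histone chaperone gene Nap1l4 by -2.11, the origin recognition subunit gene Orc6 by -2.08, the palmitoyltransferase gene Zdhhc20 by -2.05, the ubiquitin ligase subunit gene Fbxw11 by -1.98 and Dad1, an oligosaccharyltransferase subunit gene, by -1.97. The transcriptional coactivator gene Pprc1 followed at -1.89, the cell adhesion gene Ntm at -1.88, the RNA helicase gene Ddx39b at -1.88 and the proteasome subunit gene Psma2 at -1.86. Fbxw11 and Ntm were scarcely detected in positive cells. Ntm reached 1 RPKM in 0 of 18 positive and 23 of 44 negative cells, and Fbxw11 in 1 and 23 cells.

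The blocks of cell numbers overlapped in few of the calls. Among cells 1 to 48, with 11 positive and 18 negative cells, 647 genes (8.21%) were higher and 873 (11.1%) lower. Among cells 49 to 96, with 7 positive and 26 negative cells, 740 (9.39%) were higher and 1074 (13.6%) lower. Of these, 79 genes were higher in both. They are 12.2% of the first set, beside 9.39% of all genes higher in the second block, and 10.7% of the second set, beside 8.21% in the first. A further 168 were lower in both, 19.2% of the first set, beside 13.6% of all genes, and 15.6% of the second, beside 11.1%. Tpm1, Pdgfra, Mfap4, Cyr61 and Nr4a1 were past 1 in both blocks, and Gli2, Tyms and Orc6 past -1. These genes were named for their difference over all cells, of which the blocks are parts, so their agreement is no independent support. Of the 14 contractile genes, 6 were higher and 1 lower in the first block, 1 higher and 3 lower in the second.

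**Figure D5:**
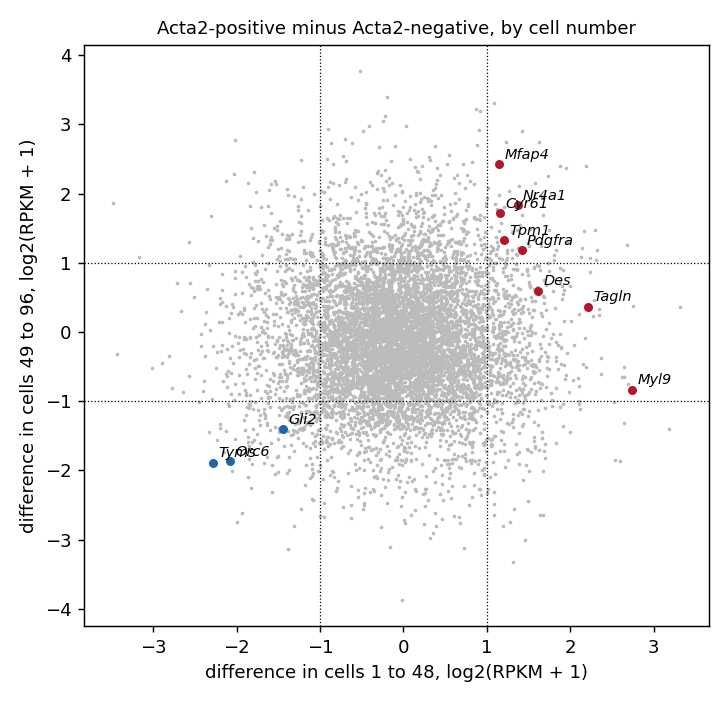
Difference between Acta2-positive and Acta2-negative cells in cells 1 to 48 (x axis) and in cells 49 to 96 (y axis), on the log2(RPKM + 1) scale, with each grey point 1 of 7884 genes and dotted lines at 1 and -1. Tpm1, Mfap4, Gli2 and Tyms lie past the lines on both axes, whereas Myl9 is at 2.74 on one and -0.83 on the other.

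Single genes of the marker lists of other cell types were found in both classes. At least 1 mesothelial marker was at 10 RPKM or more in 7 of 18 positive and 15 of 44 negative cells, 1 epithelial marker in 7 and 14, and 1 endocrine marker in 4 and 11 cells. At least 1 marker of the neural crest list was at that level in 13 of 18 positive and 32 of 44 negative cells. The summed level of 14 endothelial genes ran to 20.1 RPKM in positive and 15.02 RPKM in negative cells with medians of 0 in both, and Pecam1 and Cdh5 reached 1 RPKM in no cell. The summed level of 12 leukocyte genes ran to 30.5 and 51.1 RPKM, with Ptprc at 1 RPKM in no cell. Mesothelial genes summed to medians of 0.87 RPKM (0 to 135.9 RPKM) in positive and 0.19 RPKM (0 to 430.4 RPKM) in negative cells, with Msln at 0 throughout. Epithelial genes summed to medians of 1.49 RPKM (0 to 104.1 RPKM) and 1.73 RPKM (0 to 341.1 RPKM), and endocrine genes to 0.64 RPKM (0 to 43.5 RPKM) and 1.21 RPKM (0 to 380.2 RPKM). The neural crest list summed to 33.2 RPKM (0 to 294.0 RPKM) in positive and 25.4 RPKM (0 to 343.2 RPKM) in negative cells, and includes Ednrb, while the glial factor Sox10 was at 0 in every stromal cell. Their part in the differences was not tested.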

How the data were processed

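Per the labels' protocols, SMARTer cDNA and Nextera XT libraries were made from single captured cells. CASAVA 1.8.2 and build mm9 stand in the submitters' processing notes, while the aligner, counting tool, annotation and cell filter are not given there or in the labels. The authors deposited 29510 transcript rows for 22869 genes. Their unit, not stated, was taken as RPKM, because deposited values multiplied by length give whole reads (median over cells 81.1% of low values, tolerance 0.15 reads). This also gave estimated reads per cell, 1.66e+06 to 5.37e+06 outside the 4 shallow cells. Lengths and shared 50-base windows came from GENCODE vM21.

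Each gene took the transcript row with the highest mean. Differences used log2(RPKM + 1), which understates those of low genes, over genes at 1 RPKM in at least 10 stromal cells. Shares carry exact 95% intervals. No doublet caller was run. Named genes were the 12 widest differences in each direction (sign kept in both blocks of cell numbers, 1 RPKM in at least 50% of the higher class), up to 6 called members of each list, the contractile, actin and pericyte lists and markers of other cell types. Further genes were picked for a known role with their values visible. A gene of the contractile list is not reported here, and the counts of that list leave it out. The rule for the cells and all gene lists were chosen with earlier results of these data known. The calculation was tested on simulated data, with Python 3.11.15, numpy 2.4.6, pandas 2.3.3 and scipy 1.17.1.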

Additional observations from a re-analysis of the deposited data

Results flagged for a closer look

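Acta2 was also present in a cell outside the comparison. The shallow cell C61, left out by the rule, was at 54.1 RPKM Acta2, about 7 reads, where 3 reads would be 23.1 RPKM. It also held Col3a1 at 98.9 RPKM, Myl9 at 102.2 RPKM, Des at 12.8 RPKM and Tagln at 8.6 RPKM. At its depth 1 Acta2 read is worth 7.69 RPKM, and 1 read per kilobase of transcript 13.8 RPKM. The Des and Tagln values of this cell thus rest on few reads.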

How the results depend on the processing

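The number of Acta2-positive cells was 18 with the stromal gate at 5 or at 20 RPKM and with transcript rows summed, 16 at 5 or at 10 RPKM of Acta2, and 28 with every cell above 0. The counts of genes, 299 higher and 366 lower, depended on the scale. They were 823 and 1114 with a pseudocount of 0.1, 21 and 9 with a pseudocount of 10, 670 and 879 after rescaling to equal sums, and 606 and 657 as differences of medians. In subsets of the cells there were 647 and 873 in cells 1 to 48, 740 and 1074 in cells 49 to 96, 650 and 637 without the positive cells under 100 RPKM Acta2 that share an index with a cell of 100 RPKM or more (9 positive cells, 7368 genes), and 524 higher and 501 lower among cells of 2.4e+06 to 4e+06 reads, an alternative chosen after seeing the data (5295 genes). Rescaling to equal sums also raised the values of every cell, from median sums of 199785 RPKM in positive and 201041 RPKM in negative cells, while the pseudocount stayed at 1. It therefore changed the weight of the pseudocount together with the sums. Why the scale moved the counts was not tested. Of the named genes, Myl9 was at -0.83 in cells 49 to 96, and Id3 at 0.61 there and 0.28 among cells of 2.4e+06 to 4e+06 reads. At a pseudocount of 10, 0 contractile and 0 G1/S genes were called. G2/M genes called lower were 9 of 30 with Acta2 at 10 RPKM or more against under 1, and 2 without C91, C45, C13 and C20, of which C20 alone was in the comparison. Among cells of 2.4e+06 to 4e+06 reads, the median difference of the G2/M list was 0.02, against -0.39 in all cells, and that of the pericyte list -0.10, against 0.25. No paired analysis was possible because the cells carry no shared replicate numbers. Depth limits low genes: at the depth of the negative cells 1 Acta2 read was worth up to an estimated 0.238 RPKM. The 10 negative cells above 0 hold an estimated 1 or 2 reads each.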
